A study of Mus musculus with 27 samples.

Results

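Mature miRNAs were compared between the hippocampi of ovariectomized (OVX) mice given xanthohumol (Xmo) and those of OVX mice given saline. Xmo is a prenylated flavonoid of hops. The members were chosen by the labels alone, as the read counts of OVX Xmo 1 to 3 and OVX saline 1 to 3, which are 6 of the 12 miRNA libraries and of the 27 libraries in the series. Every mouse belonged to the ICR stock, and both groups had lost their ovaries, so by the labels they differ in treatment alone. The remaining 6 miRNA libraries came from sham-operated mice given saline or Xmo (3 each). They entered the same model and served as a second, separate pair of Xmo and saline libraries. The labels give no dose, duration or age and do not say whether each library is a separate animal, so p-values measure only the spread between these libraries. The table listed 1387 mature miRNAs, of which 1264 had a read in the 6 libraries and 605 passed the filter on low counts and were tested.

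A miRNA is cut from a hairpin transcript, whose 5p and 3p strands can each be loaded into an Argonaute protein. Bases 2 to 8 of the loaded strand, the seed, pair with target transcripts, which are then repressed or degraded, so miRNAs with the same seed share many targets. Many miRNA genes lie in clusters that are transcribed together. In the hippocampus, neuronal miRNAs such as miR-124 and miR-9 are abundant, and the miR-132/212 pair is known as a product of neuronal activity.

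The sequences below belong to miRNAs described further on, as listed in the authors' deposited table, written 5′ to 3′ with the seed in capitals. miR-122-5p, the miRNA that passed the test, is not among them. Grouping by seed shows that the first 4 share none, while the later lines fall into groups of a common seed.
miR-532-3p: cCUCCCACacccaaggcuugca
miR-412-5p: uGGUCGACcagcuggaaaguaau
miR-127-3p: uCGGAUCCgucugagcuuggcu
miR-155-5p: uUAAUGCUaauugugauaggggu
miR-135a-5p: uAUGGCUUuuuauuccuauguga
miR-135b-5p: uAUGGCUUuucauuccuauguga
miR-344-3p: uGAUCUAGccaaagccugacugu
miR-344c-3p: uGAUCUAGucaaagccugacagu
miR-17-5p: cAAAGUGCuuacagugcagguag
miR-20a-5p: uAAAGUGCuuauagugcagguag
miR-106b-5p: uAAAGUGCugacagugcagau
miR-93-5p: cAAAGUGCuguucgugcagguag
The hairpin of miR-532 is shown because its 2 arms behaved unlike their neighbours, with the 5p arm first and the 3p arm second in capitals. It lies at chrX:7248402-7248497 on the minus strand (GRCm38.p6, RefSeq).
mir-532: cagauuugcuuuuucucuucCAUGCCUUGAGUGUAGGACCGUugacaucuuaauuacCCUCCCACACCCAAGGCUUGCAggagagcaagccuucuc

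The 6 libraries held from 9.86 to 11 × 1e+06 reads, so 3 reads, the limit that a count of 0 allows, correspond to between 0.274 and 0.304 CPM (counts per 1e+06 reads). Levels below are CPM after TMM scaling, which corrects the library totals for a few dominant miRNAs. The 8 most abundant miRNAs took 49.8% to 54.1% of the reads of each library, led by miR-9b-3p, miR-26a-5p and the neuronal miR-124-3p. RefSeq places miR-9b-3p at the 3 miR-9 genes, on the strand opposite to miR-9-3p. Whether its reads came from that strand was not tested. miR-124-3p measured 74283 to 99694 CPM and the neuronal miR-9-5p 17300 to 21700 CPM, so the defining miRNAs of brain were present in every library. Markers of other cells were present too. In such bulk tissue fewer cells of a type and less of its RNA per cell cannot be told apart. Of 9 choroid plexus markers, 1 (miR-449c-5p) was at 0 in all 3 OVX Xmo libraries and at 1 to 2 reads in OVX saline. The most abundant choroid plexus miRNA, miR-204-5p, stood high in OVX Xmo 1 and OVX saline 3 (50700 and 50500 CPM) and lower in OVX Xmo 2 and 3 (17100 and 8590 CPM) and in OVX saline 1 and 2 (9670 and 8210 CPM). Each group thus held a single library rich in it. The red cell miRNA miR-451a ranged from 6400 to 12700 CPM. The log2 CPM profiles correlated across miRNAs with r from 0.975 to 0.986 within a group and from 0.975 to 0.987 between the groups, so the libraries of a group were no closer to each other than to the other group.

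Few miRNAs passed the test between Xmo-treated and saline-treated OVX hippocampi. With edgeR's quasi-likelihood test and Benjamini-Hochberg adjustment over the 605 miRNAs, 1 passed at an adjusted p under 0.05 (0.165% of those tested), and it was higher. At an unadjusted p under 0.05 there were 46 miRNAs (7.6%), 18 higher and 28 lower, with a median size of 0.54 on the log2 scale. In 93 miRNAs (15.4%) the groups did not overlap, 40 higher (6.61%) and 53 lower (8.76%). The median log2 fold change over all 605 was 0.0047 and the middle 50% of them lay between −0.17 and 0.21, with 308 above 0 (50.9%), and 13 miRNAs had a change of at least 1 in size. DESeq2 on the same counts called 3 miRNAs, and the authors' deposited table, which used DESeq2, lists 2 of 1264 at a q under 0.05.

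**Figure D1:**
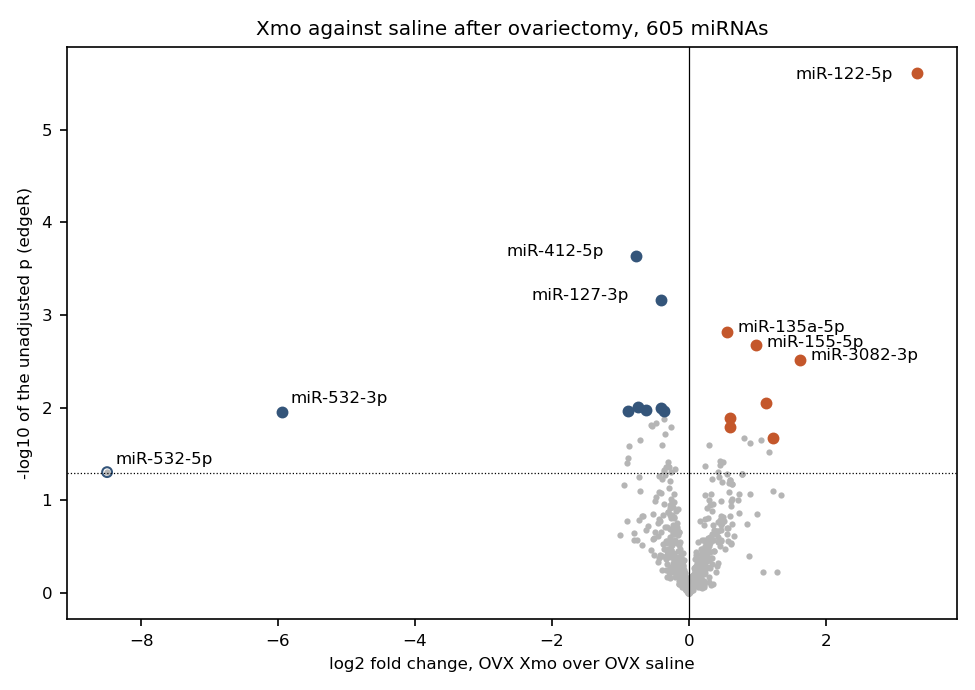
Log2 fold change of OVX Xmo over OVX saline (x axis) against −log10 of the unadjusted edgeR p (y axis) for 605 miRNAs. Coloured points are the 16 named for the smallest p in each direction, the open circle is miR-532-5p and the dotted line marks an unadjusted p of 0.05. miR-122-5p stands apart at 3.33, and miR-532-3p and miR-532-5p lie far to the left at −5.94 and −8.50 with smaller −log10 p.

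The miRNA that passed was miR-122-5p, known as the dominant miRNA of the liver, where it acts in lipid metabolism. It measured 29.4, 107 and 73.9 CPM in OVX Xmo 1 to 3 and 6.83, 6.4 and 7.7 CPM in OVX saline 1 to 3. The groups were far apart, with OVX Xmo 1 the lowest of the treated libraries. The mean rose from 6.97 to 70.1 CPM, a log2 fold change of 3.33 with an SE of 0.38 and an edgeR adjusted p of 0.00148, on 300, 1087 and 739 reads against 71, 65 and 81. The sham libraries, which share none with this comparison, showed a difference of the same direction at 32.6, 32.9 and 26.8 CPM with Xmo and 7.80, 8.45 and 8.21 CPM with saline (log2 fold change 1.91, SE 0.36; edgeR adjusted p = 0.0716). All 6 Xmo libraries of the study thus lay above all 6 saline libraries. A model of the 6 OVX libraries alone gave the same size without a call (3.35, edgeR adjusted p = 0.0586).

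Other miRNAs abundant in liver did not pass, which says little about them, as 1 of all 605 miRNAs passed (0.165%). The other strand of the hairpin, miR-122-3p, had 9, 25 and 8 reads with Xmo and 5, 8 and 14 with saline. Among miRNAs abundant in liver, looked up after the values were seen, miR-192-5p had 2575, 2491 and 2375 reads with Xmo and 2927, 2708 and 2979 with saline. miR-194-5p measured −0.40 on the log2 scale (SE 0.31) and miR-148a-3p 0.35 (SE 0.20). miR-483-5p measured 0.89 (SE 0.47). Of the others looked up, miR-21a-5p measured 0.30 (SE 0.12), miR-101b-3p 0.0047 (SE 0.14) and miR-22-3p −0.26 (SE 0.09). miR-215-5p and miR-802-5p had too few reads to be tested. The part of RNA from other tissues in the miR-122-5p difference was not tested.

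**Figure D2:**
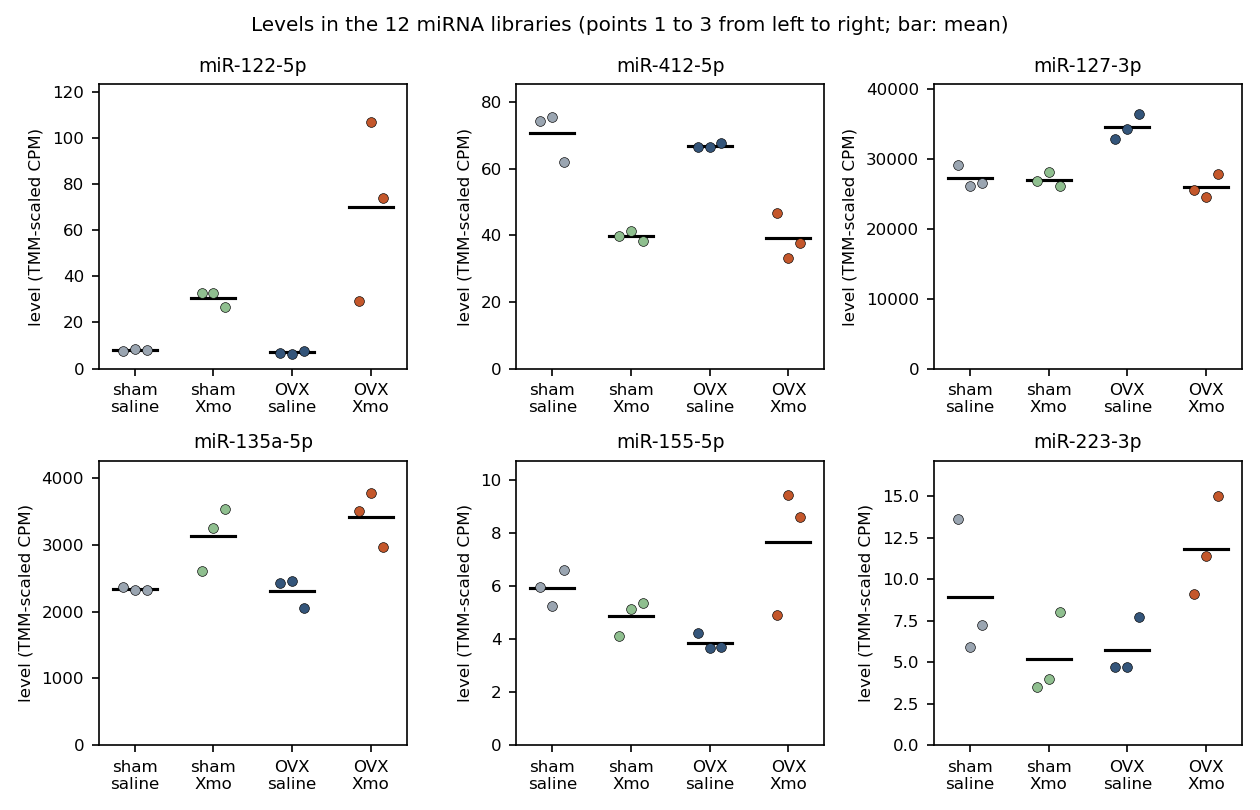
Levels in TMM-scaled CPM (y axes, from 0) of 6 miRNAs in the 12 libraries, by group; points are libraries 1 to 3 from left to right and bars are group means. miR-122-5p is high and miR-412-5p low in both Xmo groups, while miR-127-3p is high in OVX saline alone, and miR-155-5p and miR-223-3p are higher in OVX Xmo than in OVX saline.

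The lower miRNA with the smallest p was miR-412-5p, from the imprinted Dlk1-Dio3 region, whose miRNAs are transcribed from the maternal chromosome (chr12:109743303-109743325, plus strand, GRCm38.p6). It measured 46.7, 33.2 and 37.7 CPM with Xmo and 66.4, 66.6 and 67.6 CPM with saline. The 3 saline libraries were almost equal and all above the treated ones. The log2 fold change was −0.77 (SE 0.14), which did not pass over all 605 miRNAs (edgeR adjusted p = 0.0696), but did with DESeq2 (adjusted p = 0.000379). It passed in 4 of 20 alternatives. Among them was edgeR without OVX Xmo 1, the treated library nearest to saline (−0.93, adjusted p = 0.0247). Leaving out that library widens the difference, so this pass is no separate support. The sham libraries again differed in the same direction, at 39.7, 41.3 and 38.2 CPM with Xmo and 74.1, 75.4 and 62.1 CPM with saline (−0.83, SE 0.14; edgeR adjusted p = 0.0716). The other arm, miR-412-3p, measured 33.2, 23.3 and 18.5 CPM with Xmo and 32.2, 32.2 and 33.6 CPM with saline, so OVX Xmo 1 lay within the saline range.

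miR-127-3p, of the same region (chr12:109592888-109592909), is the strand that pairs with the transcript of the retrotransposon-derived gene Rtl1. It measured 25459, 24538 and 27781 CPM with Xmo and 32786, 34309 and 36323 CPM with saline, without overlap. The log2 fold change was −0.41 (SE 0.09; edgeR adjusted p = 0.139), while DESeq2 called it (adjusted p = 0.00211). The sham groups measured 26076 to 28127 CPM with Xmo and 26156 to 29113 CPM with saline, so OVX saline was the group that stood apart. This difference depends on which deposited counts are read. In the authors' exp column, a further count per library for which no source used here states the method, miR-127-3p measured 26200, 24900 and 27200 CPM with Xmo and 25900, 26200 and 25500 CPM with saline.

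Of 109 mature miRNAs of the Dlk1-Dio3 region in the table, 89 were tested and 0 passed, against 1 of all 605. Of the 89, 40 lay higher and 49 lower, with a median log2 fold change of −0.03, against 0.0047 over all miRNAs. At an unadjusted p under 0.05, 8 were lower (8.99%, against 4.63% of all miRNAs) and 1 was higher (1.12%, against 2.98%). Summed over the region, levels were 61200, 60000 and 64700 CPM with Xmo and 71600, 75200 and 77000 CPM with saline. Without miR-127-3p, which made up much of the sum, they were 35800, 35500 and 36900 CPM against 38800, 40900 and 40700 CPM, still without overlap. The sums of the sham groups overlapped, at 67700, 66800 and 62800 CPM with Xmo and 64300, 66100 and 65000 CPM with saline. Without miR-127-3p the sham sums overlapped too, at 40900, 38600 and 36700 CPM against 35200, 39900 and 38500 CPM. In the exp column the sums of the OVX groups were 102196 ± 2455 CPM with Xmo and 106455 ± 1360 CPM with saline (SD, n = 3 each). miR-1188-5p, also of this region, measured −0.74 (SE 0.24) on 204 reads in the 6 libraries and did not pass.

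The largest differences that did not pass lay in the 2 arms of miR-532, a miRNA inside the chloride transporter gene Clcn5 on the X chromosome. miR-532-3p had 2, 3 and 3 reads in OVX Xmo 1 to 3 and 166, 234 and 122 reads in OVX saline 1 to 3. That is 8 reads of 30.2 × 1e+06 against 522 of 31.5 × 1e+06, a ratio of 62.6 (exact Clopper-Pearson 95% interval 31.5 to 146, for counting error only). In the model of all 12 libraries the log2 fold change was −5.94 (SE 1.95; edgeR adjusted p = 0.490), and DESeq2 did not call it either.

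The call on miR-532-3p turned on the sham libraries. By read count these were split within each group, since the saline-treated sham libraries 1 to 3 had 278, 158 and 2 reads and the Xmo-treated ones had 241, 2 and 2. Such a spread within a group widens the shared estimate of error. A model of the 6 OVX libraries alone gave −5.92 (SE 0.41; edgeR adjusted p = 0.00116). In the exp column the order of the sham libraries was another, with 277, 158 and 241 for saline against 2, 1 and 2 for Xmo. The value 241 thus stands under sham Xmo 1 as a read count and under sham saline 3 as exp, and the value 2 the other way round. With the exp column miR-532-3p passed in all 12 libraries (−5.93, SE 0.38; edgeR adjusted p = 4.53e-06). Sham saline 3 of miR-532-3p was the only value in the whole table, of 1387 miRNAs in 12 libraries, where exp exceeded the read count. The 6 OVX libraries differed by at most 1 between the columns. The authors' deposited table gives −6.02 for the OVX comparison, with a q of 2.35e-28.

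**Figure D3:**
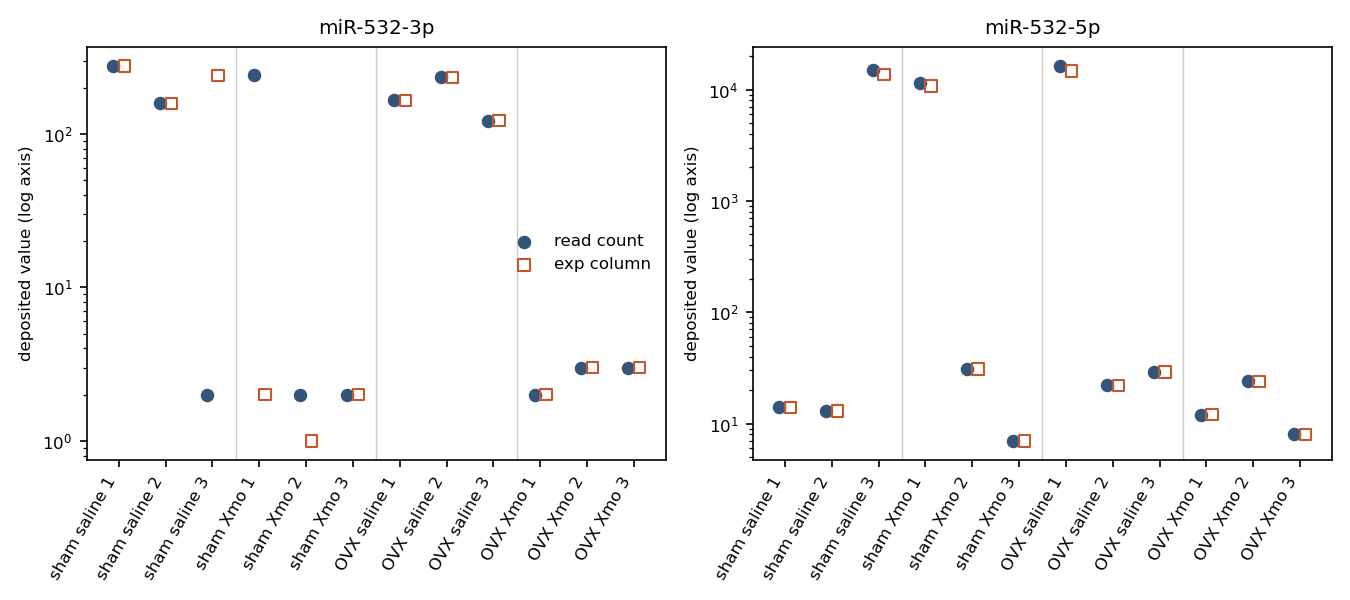
Deposited read counts (filled circles) and exp values (open squares) of miR-532-3p and miR-532-5p in the 12 libraries, on log axes. The columns of miR-532-3p disagree in sham saline 3 (2 reads, exp 241) and sham Xmo 1 (241 reads, exp 2), and miR-532-5p is high in a single library of sham saline, sham Xmo and OVX saline.

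The other arm, miR-532-5p, had 12, 24 and 8 reads with Xmo and 16380, 22 and 29 reads with saline. OVX saline 1 stood alone while the other saline libraries lay near the treated ones, and the log2 fold change of −8.50 (SE 3.85; edgeR adjusted p = 0.629) rested on that library. Without it the change was −0.76. The same on-and-off pattern appeared in the sham groups, at 15124 reads in sham saline 3 and 11577 in sham Xmo 1, against 7 to 31 in the other 4 libraries. Of the 3 libraries high in the 5p arm, OVX saline 1 and sham Xmo 1 also had 166 and 241 reads of the 3p arm, while sham saline 3 had 2. The 3p arm could also be high alone, with 22 reads of 5p and 234 of 3p in OVX saline 2.

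Neighbours of miR-532 inside Clcn5 showed no such step. miR-188-5p, the nearest 5p strand (chrX:7248031-7248051), had 98, 97 and 139 reads with Xmo and 88, 144 and 68 with saline. miR-501-3p had 599, 756 and 917 reads against 742, 757 and 650, and miR-500-3p 352, 386 and 656 against 394, 595 and 331. Their groups overlapped. Of the 8 tested miRNAs of the cluster, 6 lay higher and the 2 arms of miR-532 lower, and 0 passed.

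**Figure D4:**
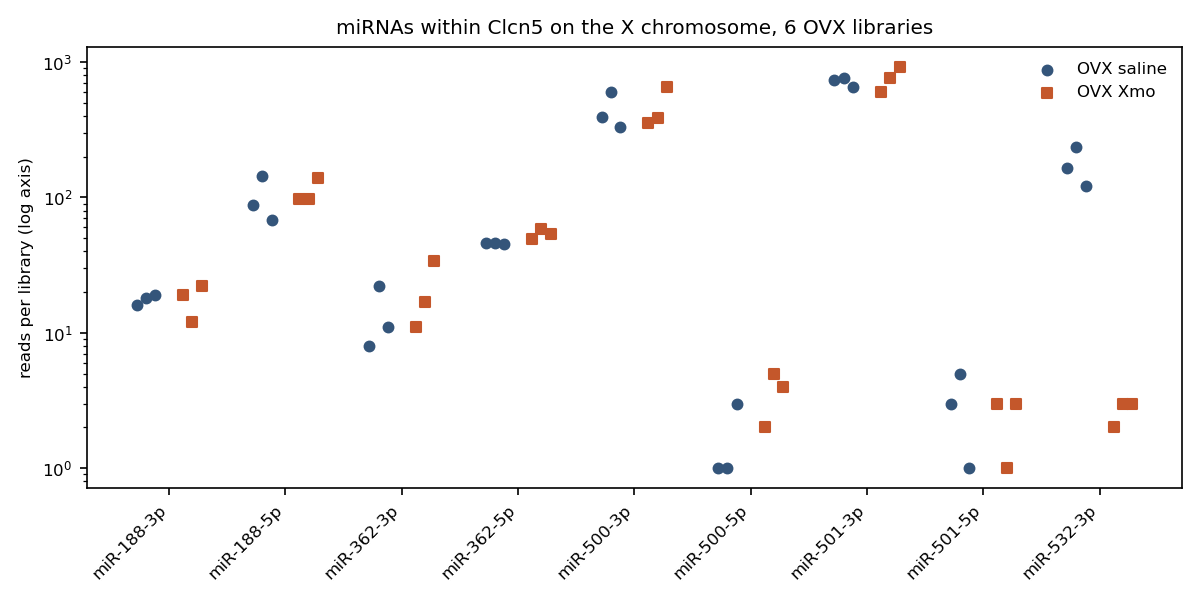
Reads per library (log axis) of the miRNAs placed within Clcn5 by RefSeq, in OVX saline (circles) and OVX Xmo (squares). miR-532-3p has 122 to 234 reads with saline and 2 to 3 with Xmo, while the groups overlap in the other members except miR-362-5p, whose 49 to 58 reads with Xmo lie just above 45 to 46 with saline.

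Among higher miRNAs that did not pass, miR-135a-5p had the smallest p. miR-135 is known in brain as a regulator of the serotonin transporter and a serotonin receptor. It measured 3500, 3781 and 2967 CPM with Xmo and 2430, 2452 and 2049 CPM with saline, without overlap (log2 fold change 0.56, SE 0.13; edgeR adjusted p = 0.230). The sham difference was 0.42 (SE 0.13). miR-135b-5p, which has the same seed and differs by 1 letter, measured 579, 541 and 566 CPM against 478, 545 and 336 CPM, with overlap. Reads of such near-identical miRNAs can be assigned to either, and their sum was 3978 ± 405 CPM with Xmo and 2764 ± 331 CPM with saline (SD, n = 3 each).

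miRNAs of inflammation lay mostly higher with Xmo. Of 8 tested, 6 lay higher, with a median of 0.30, and 0 passed, against 1 of all 605. At an unadjusted p under 0.05, 3 were higher (37.5%, against 2.98% of all miRNAs). Like the other lists, this list was chosen with earlier results of these data known, so its share is a description only. miR-146a-5p measured 0.09 (SE 0.14) and miR-146b-5p −0.11 (SE 0.12), with overlap. miR-155-5p, induced in activated immune cells including microglia, measured 4.89, 9.44 and 8.60 CPM with Xmo and 4.23, 3.64 and 3.71 CPM with saline (0.98, SE 0.25; edgeR adjusted p = 0.254). OVX Xmo 1 was close to the saline libraries. miR-155-5p passed in 1 of 19 alternatives, namely without OVX Xmo 1 (1.2, edgeR adjusted p = 0.0247). Leaving out the treated library nearest to saline widens the difference, so this pass is no separate support. miR-223-3p, of neutrophils and other myeloid cells, measured 9.1, 11.4 and 15 CPM against 4.71, 4.73 and 7.70 CPM (1.05, SE 0.40; edgeR adjusted p = 0.539). miR-21a-5p, which rises in many kinds of tissue injury, measured 2256 ± 260 CPM with Xmo and 1830 ± 71.0 CPM with saline (SD, n = 3 each; 0.30, SE 0.12).

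In sham mice these 3 miRNAs differed the other way, at −0.28 for miR-155-5p, −0.79 for miR-223-3p and −0.19 for miR-21a-5p. The difference between the Xmo effects in OVX and sham mice was 1.27 (SE 0.35) for miR-155-5p and 1.84 (SE 0.56) for miR-223-3p, and neither passed (edgeR adjusted p = 0.647 for both). In levels, sham saline measured 5.95, 5.23 and 6.59 CPM of miR-155-5p, which lies between OVX saline and the 2 highest OVX Xmo libraries. The sum of the list other than miR-21a-5p overlapped, at 647, 704 and 694 CPM with Xmo and 575, 640 and 737 CPM with saline. Blood cell miRNAs, with which miR-223-3p is shared, lay higher in 6 of 12 (median −0.0072; 6 of 11 and 0.03 with the identical miR-486a-5p and miR-486b-5p taken once), and miR-451a measured 9154 CPM with Xmo and 9608 CPM with saline on average. The part of blood in the miR-223-3p difference was not tested.

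The seed of miR-17-5p marks the miR-17/92 clusters, known for promoting cell division. miR-17-5p measured 14.2, 15.4 and 20.2 CPM with Xmo and 10.9, 13.3 and 8.74 CPM with saline (0.60, SE 0.21; edgeR adjusted p = 0.490). Members with the same seed were not alike: miR-106b-5p measured 0.50 (SE 0.32) and miR-20a-5p 0.30 (SE 0.16), but miR-93-5p, the most abundant of them, −0.05 (SE 0.12). The summed level over the seed was 461 ± 22.4 CPM with Xmo and 460 ± 23.1 CPM with saline (SD, n = 3 each), so the seed as a whole differed by less than the spread between libraries. In contrast both members of the miR-344-3p seed lay lower without overlap. miR-344-3p measured 361, 355 and 415 CPM with Xmo and 490, 441 and 574 CPM with saline (−0.41, SE 0.13; edgeR adjusted p = 0.490). miR-344c-3p, 2 letters away, measured 171, 164 and 188 CPM against 203, 226 and 255 CPM (−0.39, SE 0.15). Their sum was 551 ± 44.7 CPM with Xmo and 730 ± 86.4 CPM with saline.

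Other miRNAs among the 8 smallest p in each direction did not pass, and several had few reads. miR-3082-3p measured 1.63 (SE 0.43) on 37 reads in the 6 libraries, and in sham mice 1.67 (SE 0.45). miR-466d-3p of the Sfmbt2 cluster (1.13, 60 reads), miR-3965 (1.23, 50 reads) and miR-6989-3p (−0.88, 84 reads) were as sparse. miR-1249-3p, at 28 ± 6.02 CPM with saline and 42.4 ± 8.30 CPM with Xmo, measured 0.60 (SE 0.20). miR-3102-5p.2-5p measured −0.63 (SE 0.20). miR-7a-2-3p, the less used strand of a miR-7 hairpin, measured 111 to 132 CPM with Xmo and 144 to 172 CPM with saline (−0.36, SE 0.12).

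The abundant miRNAs and the neuronal ones mostly overlapped between the groups. Of 22 neuron-enriched miRNAs, 11 lay higher and 11 lower (median 0.01) and 0 passed. As 1 of all 605 passed (0.165%), a count of 0 in this or any other list says little about its members. miR-124-3p measured −0.13 (SE 0.13) and miR-26a-5p 0.02 (SE 0.09). miR-9-5p, which acts in neural progenitors, measured 20770 ± 956 CPM with Xmo and 17638 ± 439 CPM with saline (0.24, SE 0.10). miR-22-3p lay lower without overlap, at 38401, 41147 and 39044 CPM against 46214, 46525 and 49517 CPM (−0.26, SE 0.09; edgeR adjusted p = 0.490).

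Of 29 miRNAs of activity and plasticity 12 lay higher and 17 lower (median −0.04) and 0 passed. miR-212-3p, which neuronal activity induces through CREB, measured 564 ± 56.5 CPM with Xmo and 674 ± 34.6 CPM with saline (−0.26, SE 0.12). miR-132-5p, from the same cluster, measured −0.28 (SE 0.13), and miR-134-3p, from the hairpin of a regulator of dendritic spines, −0.36 (SE 0.16). These were the members with the smallest p, and the other strands of their hairpins did not share the difference. miR-212-5p measured 0.05 (SE 0.28), miR-132-3p −0.12 (SE 0.33) and miR-134-5p 0.01 (SE 0.14), each with overlap. Of 31 miRNAs studied on APP, BACE1 and tau transcripts 20 lay higher (median 0.05) and 0 passed. Of 33 miRNAs reported as responsive to estrogen 18 lay higher (median 0.01) and 0 passed. The let-7 family lay higher in 11 of 19 (median 0.04; 11 of 18 and 0.09 with the identical let-7a-1-3p and let-7c-2-3p taken once) and the miR-29 family in 4 of 6 (median 0.17). In the miR-181 family 6 of 7 lay lower (median −0.13), with miR-181d-5p at 212 ± 20.3 CPM against 263 ± 9.10 CPM (−0.31, SE 0.13).

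Markers of other cells also gave 0 passing members, where 1 of all 605 miRNAs passed. Choroid plexus and ciliated epithelium lay lower in 12 of 15 (median −0.14). Their summed level without miR-204-5p was 1510, 1260 and 841 CPM with Xmo and 818, 831 and 2080 CPM with saline, so OVX saline 3 was far above the other saline libraries. The largest difference in that list went the other way, with miR-211-5p at 1.34 (SE 0.71). Smooth muscle, pericyte and fibroblast miRNAs lay higher in 8 of 9 (median 0.28), or in 7 of 8 (median 0.30) with miR-199a-3p and miR-199b-3p, whose counts are identical, taken once. Oligodendrocyte miRNAs lay higher in 2 of 5 (median −0.04). miR-126a-5p of endothelium measured 0.50 (SE 0.21), while its far more abundant partner miR-126a-3p measured −0.06 (SE 0.11). The sensory cluster of miR-183, miR-96 and miR-182 lay lower in 3 of 3 (median −0.80), but its summed level was 101, 62.7 and 78.3 CPM with Xmo and 53.4, 67.3 and 321 CPM with saline, so this rested on OVX saline 3. The Sfmbt2 cluster lay higher in 24 of 34 (median 0.16), and 8 were higher without overlap (23.5%, against 6.61% of all miRNAs), with 0 passing. Some of these members are the same measurement, since miR-466b-3p, miR-466c-3p and miR-466p-3p have identical counts, as do miR-669a-3p and miR-669o-3p. With identical counts taken once, 20 of 29 lay higher and 5 were higher without overlap (17.2%, against 6.2% of 597 distinct miRNAs). By an unadjusted p under 0.05 the cluster showed no such excess. Of the 34, 1 was higher (2.94%, against 2.98% of all miRNAs) and 1 lower (2.94%, against 4.63%). Its summed levels overlapped, at 724, 817 and 732 CPM with Xmo and 670, 644 and 755 CPM with saline.

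The 5p and 3p strands of a hairpin come from the same transcript, which allows a look at how alike they were. Of 178 hairpins with both strands tested, 99 had log2 fold changes of the same sign. The Pearson r over these 178 was 0.74 and the Spearman rho 0.15, and without miR-532, low in both arms, they were 0.13 and 0.14. Of the 80 with both strands at 10 CPM or more, 43 did, with a Pearson r of 0.11 and a Spearman rho of 0.12 across hairpins. The strands share their libraries and their scaling, and hairpins are not independent replicates. Some hairpins also share a strand with identical counts, such as the 3p strand of miR-466b, miR-466c and miR-466p. Each such hairpin was counted.

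The sham comparison of Xmo with saline shares no library with the OVX comparison. Of the 46 miRNAs at an unadjusted p under 0.05 after ovariectomy, 30 had the same sign in sham mice (65.2%), against 333 of all 605 (55%). Of these, 8 also had an unadjusted p under 0.05 in sham mice. They were miR-122-5p, miR-135a-5p and miR-3082-3p (higher) and miR-412-5p, miR-700-3p, miR-344c-3p, miR-181d-5p and miR-30c-1-3p (lower). The same count over all 605 miRNAs was not taken. Both comparisons come from the same model, with a shared estimate of the spread for each miRNA. A small p in both is therefore not independent support. Across all miRNAs the log2 fold changes of the comparisons had a Pearson r of 0.10 and a Spearman rho of 0.14, as a description across miRNAs. Sham mice alone gave 0 calls by edgeR's adjusted p, and 57 of all 605 miRNAs (9.42%) had an unadjusted p under 0.05 in either direction.

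**Figure D5:**
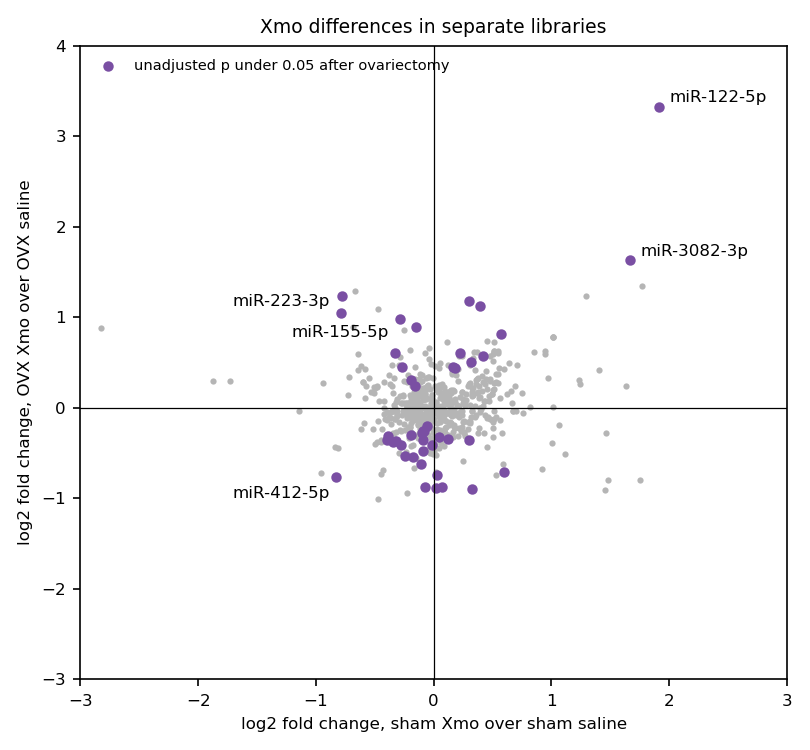
Log2 fold change of Xmo over saline in sham mice (x axis) and OVX mice (y axis), 1 point per miRNA; 3 miRNAs lie outside the axes. miR-122-5p and miR-3082-3p are higher and miR-412-5p lower on both axes, while miR-155-5p and miR-223-3p are higher after ovariectomy and lower in sham mice.

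Whether Xmo acted differently after ovariectomy was tested directly by the interaction, which subtracts the sham difference from the OVX difference. None of 605 miRNAs passed in edgeR (0 calls), 42 had an unadjusted p under 0.05 (6.94%), and DESeq2 called 0. The 5 with the smallest p were miR-6899-3p (−1.31, SE 0.32), miR-155-5p, miR-223-3p, miR-1249-3p (0.93, SE 0.28) and miR-3965 (2.01, SE 0.63), with edgeR adjusted p = 0.647 for each. Leaving out OVX Xmo 1 gave 1 call, miR-122-5p, whose interaction was 1.75 (edgeR adjusted p = 0.0266) against 1.41 with all libraries. OVX Xmo 1 was the treated OVX library lowest in miR-122-5p. Leaving it out widens the OVX difference, so this call is no separate support.

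A property of the libraries also followed treatment. The exp column held 43.3%, 42.6% and 43.6% of the reads in OVX Xmo and 39.7%, 39.6% and 38.2% in OVX saline, and for the 20 most abundant miRNAs 30.7%, 29.9% and 30.8% against 26.6%, 26.4% and 25.4%. The sham libraries split the same way, at 42.9% to 45.1% with Xmo and 38.7% to 40.6% with saline. miR-26a-5p passed by exp (0.31, edgeR adjusted p = 0.0433), at 42200, 40400 and 41800 CPM against 33800, 34100 and 32500 CPM, while its reads gave 0.02. What made this share differ was not tested, and it cannot be told apart from treatment.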

How the data were processed

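Per the labels' protocols, hippocampi were flash frozen, RNA was harvested with Trizol and libraries were made with an Illumina TruSeq RNA kit. Bowtie2 2.3.2, StringTie 1.3.3b, Trimmomatic 0.36, FastQC 0.11.2 and the build GRCm38.p6 were named, with no role for each, per the submitters' processing notes. The authors deposited whole-number read counts per mature miRNA, which were used here, and a second count column named exp, used as an alternative. Per the file headers, the deposited table also gives a log2 fold change and, from DESeq2, a p-value and a q-value for each miRNA. The mRNA table was not used here. It holds 12 columns that match no sample given here.

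miRNAs with low counts were removed with filterByExpr, counts were scaled by TMM, and edgeR 4.0.16 (limma 3.58.1, R 4.3.3) fitted its quasi-likelihood model to all 12 miRNA libraries in 4 groups, with 8 residual degrees of freedom. DESeq2 1.42.0 served as an alternative. The script was tested on simulated data. Each SE is the size of the log2 change over the root of F. Values with ± are SDs over 3 libraries. Libraries of a group differed by far more than counting error. The members, the 24 lists and the rule for naming miRNAs (those past the test without overlap, the 8 smallest p per direction, the 8 most abundant, up to 3 per list, miR-532, known from the study's follow-up, other arms and seed mates, and 5 for the interaction) were chosen with earlier results of these data known. RefSeq entries of the same name were found for 1179 of 1387 miRNAs.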

Additional observations from a re-analysis of the deposited data

How the results depend on the processing

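The count of 1 miRNA past the test became 3 with DESeq2 (miR-122-5p, miR-412-5p and miR-127-3p), 2 with a filter of at least 10 CPM in 3 libraries (miR-122-5p and miR-412-5p) and 4 with the exp column (miR-122-5p, miR-26a-5p, miR-412-5p and miR-532-3p). It stayed at 1 with DESeq2 size factors, without a filter and with a robust estimate of the spread, which was added after seeing the data. A model of the 6 OVX libraries also gave 1, but this was miR-532-3p in place of miR-122-5p. Leaving out each of the 12 libraries in turn gave 1 to 3 calls, with 3 only without OVX Xmo 1; the sham libraries were added to this after seeing the data. For the interaction the same gave 0 to 1 calls. miR-122-5p passed in 19 of 20 alternatives (adjusted p from 1.2e-16 to 0.0586), miR-412-5p in 4 (0.000379 to 0.461), miR-532-3p in 2 (4.53e-06 to 0.989), and miR-127-3p in 1 of 20 (0.00211 to 0.949). miR-155-5p passed in 1 of 19 (0.0247 to 0.814). miR-127-3p was the only named miRNA whose sign turned, to 0.013 with the exp column. With the replicate number as a block, 1 miRNA passed after ovariectomy, miR-122-5p (3.24, edgeR adjusted p = 0.00694), and 0 for the interaction. The numbers gave no sign of pairing the samples: deviations of same-numbered libraries correlated at 0.013, 0.033 and −0.52, and 0 of 3 correlated best with their own number. Deviations within a group of 3 libraries are tied to each other, so this cannot show that the samples were unpaired. A count of 0 allows up to 3 reads per library, so differences in miRNAs under about 0.3 CPM were not detectable at this depth. Among the 605 tested, 15 miRNAs in 7 sets had the same counts in all 12 libraries, which leaves 597 distinct measurements. Counting these once was added after seeing the data.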

Other observations

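Of 388 miRNAs that reached 10 CPM in a library, 10 varied at least 20-fold over the 12 libraries. Besides both arms of miR-532 they were miR-744-5p, miR-297c-5p, miR-669c-5p, miR-221-5p, miR-3535, miR-448-3p, miR-96-5p and miR-1298-5p, chosen after the values were seen. miR-744-5p had 3713, 3162 and 45 reads in OVX Xmo and 13, 19 and 2903 in OVX saline. miR-297c-5p had 728, 0 and 639 reads in OVX Xmo and 661, 0 and 1 in OVX saline. miR-669c-5p had 0, 185 and 170 reads in OVX Xmo and 3, 153 and 156 in OVX saline, with 155, 234 and 177 in sham saline and 0 in each sham Xmo library. The sham groups thus did not overlap in it. Each of these 3 was high in some libraries and low in others within both OVX groups, in a different set of libraries each time.

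miRNAs inside the serotonin receptor gene Htr2c on the X chromosome, which choroid plexus expresses strongly, followed miR-204-5p. miR-1298-5p had 25806, 9679 and 2800 reads in OVX Xmo and 2816, 2686 and 29041 in OVX saline. miR-448-3p had 501, 236 and 41 reads against 37, 54 and 534, and miR-1264-3p 329, 191 and 59 against 57, 60 and 394. The groups overlapped in all 3, with OVX Xmo 1 and OVX saline 3 the highest.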
